A study of Mus musculus with 12 samples.

Results

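The table of the series lists 27487 genes, and the 620 described here are the expressed noncoding transcripts among them. A gene was taken when none of its annotated transcript types is protein_coding, when it does not lie on the mitochondrial chromosome, and when it averaged at least 2 FPKM (fragments counted, scaled to transcript length and to library size) and at least 200 estimated counts over the 12 libraries. Of the 12667 genes with no protein_coding type, 620 met both minimums. By annotated type they are 412 pseudogenes, 164 long noncoding RNAs (lncRNAs), 18 TEC rows (regions annotated as transcribed whose transcript is still to be established), 24 rows with other types such as retained introns and nonsense-mediated decay transcripts, 1 miRNA and 1 rRNA. The members were chosen by their FPKM and counts averaged over all 12 libraries, so that a high level is not a finding, whereas differences between the groups were not used. All 620 passed the filter on low counts before testing.

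The cells were mouse BV2, a line of microglia immortalised by a retrovirus carrying raf and myc oncogenes, and every library also carries the tissue name retina in its labels. CTR is BV2 cells alone. Neu is BV2 cells in culture with primary neutrophils from mice. Neu+NETs is BV2 cells with primary neutrophils that had been given phorbol 12-myristate 13-acetate (PMA), a protein kinase C activator that drives neutrophils to release extracellular traps (NETs) of chromatin and granule proteins. There were 4 libraries of polyadenylated RNA per group. Age, sex and strain of the neutrophil donors, the time in culture, and whether neutrophils or PMA were removed before RNA was taken are not stated by the labels, and no group had BV2 cells with PMA alone. Nothing in the labels says that the 4 libraries of a group came from separate cultures, so the tests rest on a spread that may be technical. In bulk RNA, fewer cells of a type and less RNA per cell cannot be told apart.

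Long noncoding RNAs act as RNA rather than through a protein. Malat1 and Neat1 stay in the nucleus, where Malat1 gathers at splicing speckles and Neat1 is the scaffold of paraspeckles, bodies that hold RNA-binding proteins. Host genes such as Gas5 and the Snhg family are spliced into short-lived RNAs whose introns release small nucleolar RNAs (snoRNAs), the guides of ribosomal RNA modification, and the spliced remainder is often cleared by nonsense-mediated decay. Other hosts carry microRNAs (miRNAs), which pair with messenger RNAs through a short seed. Processed pseudogenes are copies of messenger RNAs inserted into the genome, and a read from a coding gene can match its copy as well as the gene itself. Libraries of polyadenylated RNA measure the host transcript and not the snoRNA or mature miRNA cut from it.

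The 2 miRNA host genes among the members, Mir17hg and Mir22hg, are known through the miRNAs they carry, which are shown from RefSeq (GRCm38.p6), 5′ to 3′, with the seed (bases 2 to 8) in capitals.
mmu-miR-17-5p: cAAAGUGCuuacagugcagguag
mmu-miR-20a-5p: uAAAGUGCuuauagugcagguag
mmu-miR-18a-5p: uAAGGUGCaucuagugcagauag
mmu-miR-19a-3p: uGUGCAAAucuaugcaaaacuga
mmu-miR-19b-3p: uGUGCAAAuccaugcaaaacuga
mmu-miR-92a-3p: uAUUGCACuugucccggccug
mmu-miR-22-3p: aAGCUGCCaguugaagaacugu
The first 6 lie on the plus strand between chr14:115043684 and chr14:115044496, and miR-22 lies at chr11:75463772-75463793 on the plus strand. miR-17-5p and miR-20a-5p share the seed AAAGUGC, from which miR-18a-5p differs in its seed AAGGUGC. miR-19a-3p and miR-19b-3p share GUGCAAA, and miR-92a-3p and miR-22-3p have seeds of their own. None of these mature miRNAs was measured here.

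snoRNA hosts are known for starting with a terminal oligopyrimidine tract, a C followed by pyrimidines at the first transcribed base, which ties translation of ribosomal protein messengers to growth signals. The windows below hold 20 bases before and 30 after an annotated start of 5 hosts (RefSeq, GRCm38.p6, 5′ to 3′ on the gene's strand). The tract is in capitals where the start was followed by a C and at least 4 bases that are each C or T.
Gas5: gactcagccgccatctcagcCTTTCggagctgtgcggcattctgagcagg
Snhg7: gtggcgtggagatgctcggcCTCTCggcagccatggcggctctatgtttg
Snhg8: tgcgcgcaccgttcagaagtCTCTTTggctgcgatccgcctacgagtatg
Snhg1: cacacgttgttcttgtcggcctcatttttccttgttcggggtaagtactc
Snhg15: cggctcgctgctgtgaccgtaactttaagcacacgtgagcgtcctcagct
They lie at chr1:161035146-161035195 (plus), chr2:26640215-26640264 (minus), chr3:123508307-123508356 (minus), chr19:8723467-8723516 (plus) and chr11:6528731-6528780 (minus). Gas5, Snhg7 and Snhg8 held the tract at the start printed and Snhg1 and Snhg15 did not. For Gas5 the start with the tract was picked, and another annotated start of Gas5 lacked it. All host starts that held the tract are printed, but only some of those without it. Of 13 annotated starts of the 11 host members found in the RefSeq promoter table, 3 (23.1%) held it, against 7 of 91 starts (7.69%) of 73 lncRNA members and 823 of 32851 starts (2.51%) of all genes, searched on the gene's strand at the start alone.

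The libraries held 53512190 to 68316549 estimated counts. The members took 2.90 to 2.95% of them in CTR, 3.09 to 3.17% in Neu and 2.83 to 2.87% in Neu+NETs, most of it on pseudogenes. Of 15 markers of mature neutrophils, 11 were in the table, with a summed level of 15.2 to 16.6 FPKM in CTR, 29.0 to 29.7 in Neu and 3.19 to 3.67 in Neu+NETs, and 9, 6 and 10 of the 11 stayed under 1 FPKM in every library of the group. CTR is BV2 cells alone and its sum lay above that of Neu+NETs, so the sum is no measure of neutrophil RNA alone. The 14 microglia and macrophage markers summed to 1165 to 1228, 1139 to 1190 and 771 to 784 FPKM. The 7 retinal markers measured summed to 25.3 to 27.0, 21.5 to 23.3 and 23.5 to 26.2 FPKM. Most of this was Glul, the glutamine synthetase of Müller glia, which macrophages also express, at 18.9 to 25.1 FPKM, and Rbpms was at 1.11 to 2.10 FPKM. The other 5 were under 1 FPKM throughout. What part neutrophil RNA has in the differences below was not tested.

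A gene was called when edgeR's quasi-likelihood test gave an adjusted p under 0.05 over all 16387 genes tested. In Neu against CTR, 166 members were higher and 150 lower, which is 51.0% of the 620, where 54.1% of all genes tested were called (26.1% higher, 27.9% lower). In Neu+NETs against CTR, 89 were higher and 97 lower, 30% of the members against 45.3% of all genes (21.6% higher, 23.7% lower). In Neu+NETs against Neu, 171 were higher and 174 lower, 55.6% against 62.5% (29.4% higher, 33.1% lower). Calls in which the libraries of the groups did not overlap numbered 249, 137 and 293 members, where 47.7%, 38.2% and 54.8% of all genes met both conditions. Whether these shares differ was not tested. The members' median log2 fold changes of -0.014, -0.0090 and -0.019 lay near the medians of all genes, 0.020, 0.00021 and -0.049. Neu+NETs is set against both other groups, and Neu and CTR each stand in 2 comparisons, so the 3 comparisons share libraries.

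Of the 164 lncRNAs, 68 rose and 42 fell in Neu against CTR (67.1%, median log2 fold change 0.14), 36 rose and 46 fell in Neu+NETs against CTR (50%, median -0.012), and 40 rose and 74 fell in Neu+NETs against Neu (69.5%, median -0.13). Of the 412 pseudogenes, 87 rose and 100 fell, 46 rose and 42 fell, and 122 rose and 88 fell in the same order (45.4%, 21.4% and 51.0%). Of the 18 TEC rows, 9 rose and 2 fell in Neu against CTR, 4 did each in Neu+NETs against CTR, and 2 rose and 9 fell in Neu+NETs against Neu (61.1%, 44.4% and 61.1%). The shares over all genes were 54.1%, 45.3% and 62.5%. Among the members, changes of at least 1 on the log2 scale were mostly in lncRNAs, with 20 of the 32 such calls in Neu against CTR, 11 of 17 in Neu+NETs against CTR and 35 of 46 in Neu+NETs against Neu. These are out of 164 lncRNAs, beside 1494, 1186 and 2852 such calls among all 16387 genes tested. As shares, they lay somewhat above those of all genes in Neu against CTR and in Neu+NETs against Neu. In Neu+NETs against CTR the share of lncRNAs lay slightly below that of all genes. Only 8, 2 and 7 of the 412 pseudogenes had such a call. The difference between classes itself was not tested.

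**Figure D1:**
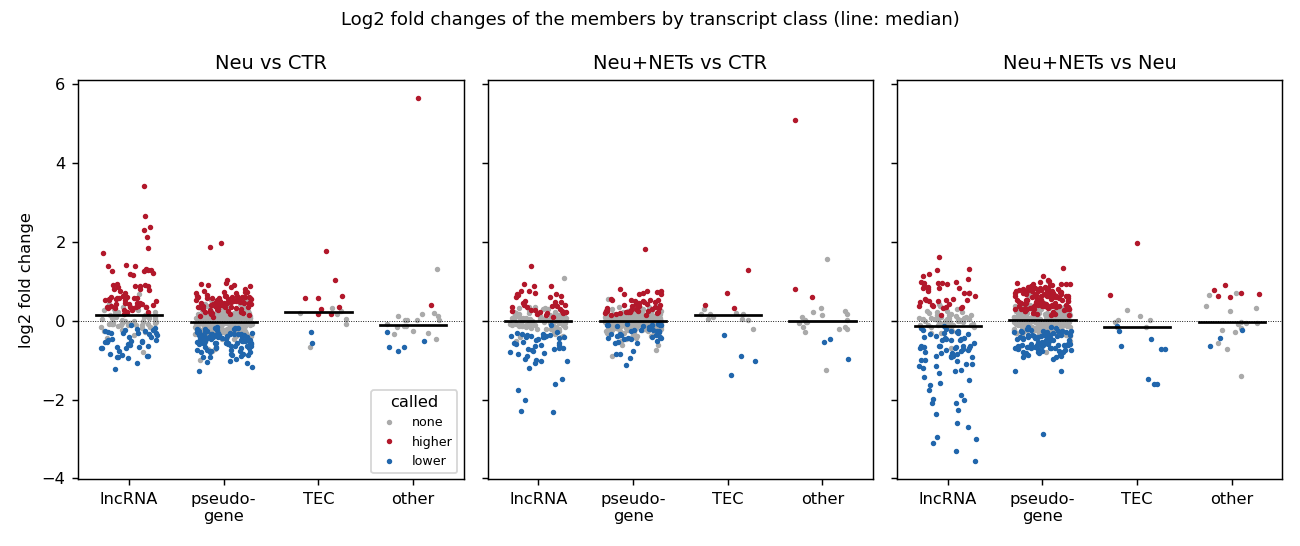
Log2 fold changes (y axis) of the members in the 3 comparisons by transcript class (x axis); each point is a gene, coloured by its call in edgeR, and the line is the class median. The lncRNAs spread wider than the pseudogenes, from 3.41 for Gm15850 in Neu against CTR to -3.57 for A330074K22Rik in Neu+NETs against Neu.

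Of 13 architectural and long nuclear RNAs listed, 10 were in the table and 5 were members: Malat1, Neat1, Xist, Norad and Firre. In Neu against CTR 4 rose and none fell, in Neu+NETs against CTR 1 rose and 1 fell, and in Neu+NETs against Neu none rose and 3 fell. These were 80%, 40% and 60% of the 5, against 54.1%, 45.3% and 62.5% of all genes. Malat1 (chr19:5845717-5852706, minus strand, GRCm39 as for all positions without another build) was at 19.3, 21.5, 22.2 and 19.7 FPKM in the CTR libraries, at 41.3, 34.4, 34.1 and 35.2 FPKM in the Neu libraries and at 20.3, 24.3, 21.7 and 26.3 FPKM in the Neu+NETs libraries. All 4 Neu libraries lay above every other library, the first of them furthest, while CTR and Neu+NETs overlapped. Malat1 was 1.82-fold higher in Neu than in CTR (log2 fold change 0.87 ± 0.074, adjusted p = 2.8e-08) and lower in Neu+NETs than in Neu (log2 fold change -0.75 ± 0.074, adjusted p = 1.0e-07). It did not pass the test between Neu+NETs and CTR, at 0.11 ± 0.074 (adjusted p = 0.245).

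Neat1 (chr19:5874736-5895898, minus strand) moved on both sides of the control. The level is that of the whole gene in polyadenylated RNA, so forms of Neat1 were not told apart and paraspeckles were not measured. Neat1 was at 9.24, 10.4, 10.3 and 8.77 FPKM in the CTR libraries, at 15, 13.7, 14.4 and 13.8 FPKM in the Neu libraries and at 6.52, 7.54, 7.12 and 6.17 FPKM in the Neu+NETs libraries. The 3 groups did not overlap, with Neu highest and Neu+NETs lowest. The log2 fold change was 0.61 ± 0.064 in Neu (adjusted p = 3.5e-07) and -0.55 ± 0.064 in Neu+NETs (adjusted p = 2.1e-06), each against CTR, and Neu+NETs stood 2.23-fold below Neu (log2 fold change -1.16 ± 0.065, adjusted p = 6.2e-11). Xist, the RNA that silences an X chromosome in female cells, was at 49 ± 0.714 FPKM in CTR, 56.6 ± 2.15 FPKM in Neu and 48.2 ± 2.7 FPKM in Neu+NETs, higher in Neu than in CTR (log2 fold change 0.26 ± 0.032, adjusted p = 2.0e-06) and lower in Neu+NETs than in Neu (log2 fold change -0.34 ± 0.032, adjusted p = 7.2e-08). Firre, which anchors chromatin at the nuclear lamina and nucleolus, rose slightly against CTR, with overlap between groups. For Neu the fit gave a small rise (log2 fold change 0.22 ± 0.048, adjusted p = 0.00112). For Neu+NETs it gave a smaller estimate (log2 fold change 0.14 ± 0.048, adjusted p = 0.0266). The second call was lost without CTR 1, CTR 3, CTR 4, Neu+NETs 2, Neu+NETs 3 or Neu+NETs 4 (adjusted p of 0.0514 to 0.0703). Norad, a cytoplasmic decoy of Pumilio proteins, was at 32.4 ± 0.404 FPKM in CTR, 32 ± 0.58 FPKM in Neu and 35.3 ± 1.18 FPKM in Neu+NETs and passed no test. Tug1 was at 11.3 FPKM but has a protein_coding transcript type and is no member.

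**Figure D2:**
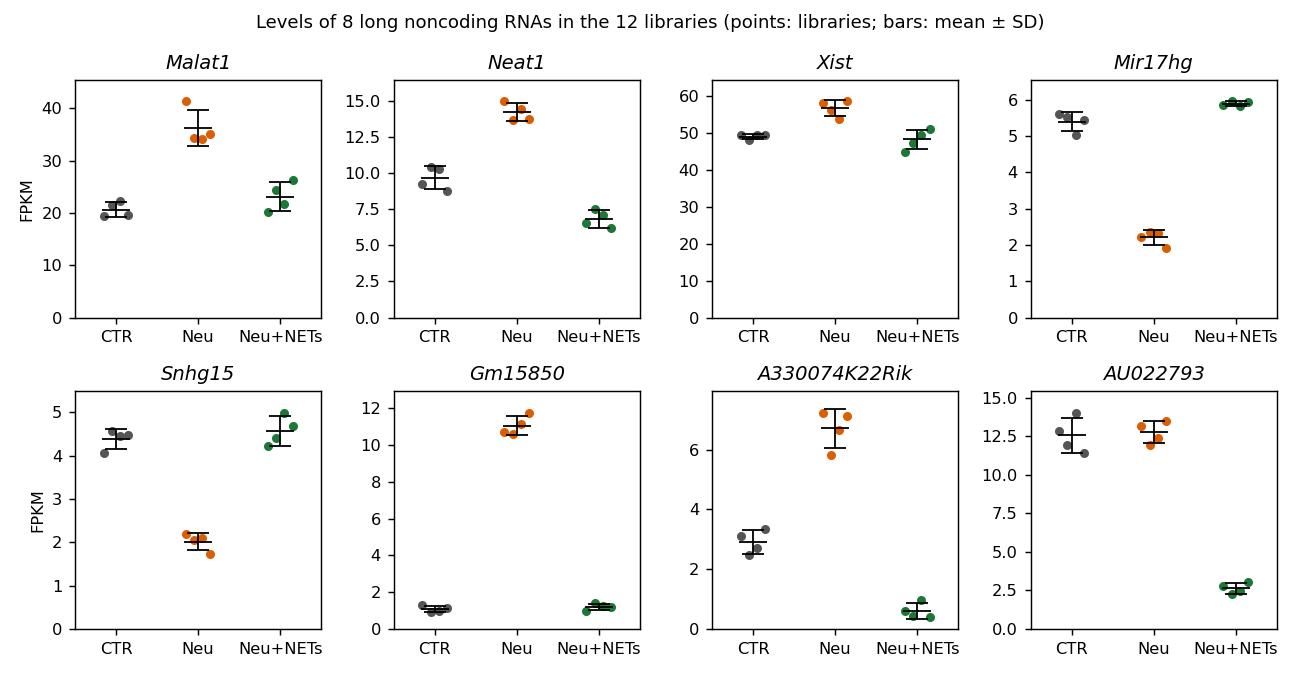
FPKM (y axis, from 0) of 8 lncRNA members in the 4 libraries of each group (points), with mean and SD (bars). Malat1, Xist and Gm15850 are highest in Neu, Mir17hg and Snhg15 lowest in Neu, and AU022793 and A330074K22Rik lowest in Neu+NETs, where Neat1 also lies below both other groups.

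Paraspeckle proteins bind Neat1 or assemble around it. Of the 12 tested, 3 rose and 8 fell in Neu against CTR, 7 rose and 2 fell in Neu+NETs against CTR, and 8 rose and 2 fell in Neu+NETs against Neu, with median log2 fold changes of -0.26, 0.16 and 0.24 beside the medians of all genes given above and with 91.7%, 75% and 83.3% called against 54.1%, 45.3% and 62.5% of all genes. Sfpq, a core protein needed for paraspeckles, had log2 fold changes of -0.62, 0.077 and 0.70 in these 3 comparisons, all called. Tardbp, an RNA-binding protein that Neat1 can hold, went the same way at -0.39, 0.30 and 0.70. Pspc1, another core protein, fell in all 3, by 0.22, 1.20 and 0.98 on the log2 scale. Neat1 and Sfpq stood on opposite sides of CTR in both groups, but Sfpq by only 0.077 in Neu+NETs, where Pspc1 fell as Neat1 did. Whether Neat1 and these proteins are linked was not tested.

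Of 24 snoRNA host genes listed, 23 were in the table and 15 were members, 1 of which, Gm12346, is annotated as a pseudogene and is counted with those. Of the other 14, 3 rose and 5 fell in Neu against CTR, 3 rose and none fell in Neu+NETs against CTR, and 7 rose and 1 fell in Neu+NETs against Neu, with median log2 fold changes of -0.14, 0.16 and 0.27. The shares called were 57.1%, 21.4% and 57.1%, against 54.1%, 45.3% and 62.5% of all genes, so that of Neu+NETs against CTR lay under the share over all genes and the others near it. Snhg15 (chr11:6475295-6478841, minus strand) changed most. It was at 4.05, 4.56, 4.46 and 4.46 FPKM in the CTR libraries, at 2.19, 2.05, 2.09 and 1.72 FPKM in the Neu libraries and at 4.21, 4.4, 4.99 and 4.68 FPKM in the Neu+NETs libraries. All 4 Neu libraries were below every other library, and CTR and Neu+NETs overlapped. Its level in Neu was 2.09-fold lower than in CTR (log2 fold change -1.06 ± 0.095, adjusted p = 4.6e-08), and in Neu+NETs it was 2.1-fold higher than in Neu (log2 fold change 1.07 ± 0.095, adjusted p = 2.7e-08). Between Neu+NETs and CTR its log2 fold change was 0.011 ± 0.093 (adjusted p = 0.942).

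Snhg5, Snhg12 and Snhg4 shared the order of Snhg15. Snhg5, a host of the U50 snoRNAs, was at 4.7, 5.19, 5.12 and 5.17 FPKM in the CTR libraries, at 2.78, 2.9, 3.1 and 3.33 FPKM in the Neu libraries and at 5.69, 6.17, 5.66 and 5.75 FPKM in the Neu+NETs libraries, with Neu below both other groups (log2 fold change -0.67 ± 0.069, adjusted p = 2.6e-07 against CTR). Snhg12 was at 3.07 ± 0.656 FPKM in CTR, 2.05 ± 0.258 FPKM in Neu and 3.89 ± 0.411 FPKM in Neu+NETs and Snhg4 at 3 ± 0.252 FPKM in CTR, 2.06 ± 0.167 FPKM in Neu and 3.44 ± 0.442 FPKM in Neu+NETs. Their log2 fold changes were -0.52 and -0.48 in Neu against CTR and 0.81 and 0.63 in Neu+NETs against Neu, all called, and none of these 3 hosts passed the test between Neu+NETs and CTR. The Snhg4 row overlaps a second Snhg4 row with a protein_coding type on the same strand, so its reads may be split between them.

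Gas5, a host of box C/D snoRNAs that also binds the glucocorticoid receptor, showed small differences at 15.7 ± 1.24 FPKM in CTR, 13.3 ± 0.899 FPKM in Neu and 18.2 ± 0.765 FPKM in Neu+NETs. Its log2 fold changes of -0.19 in Neu (adjusted p = 0.0194) and 0.17 in Neu+NETs (adjusted p = 0.0395) against CTR each lost the call in 6 other settings, with adjusted p of 0.0554 to 0.0774 and 0.050 to 0.125, among them without CTR 1, CTR 2 or Neu 4 for the first and without CTR 3, CTR 4, Neu 1, Neu+NETs 1 or Neu+NETs 3 for the second. The difference between Neu+NETs and Neu held in all settings (log2 fold change 0.35 ± 0.063, adjusted p = 1.0e-04). Snhg1 rose in Neu+NETs against CTR (log2 fold change 0.23 ± 0.048, adjusted p = 9.0e-04) and against Neu (log2 fold change 0.32 ± 0.048, adjusted p = 1.4e-05), and Snhg7 rose in Neu+NETs against Neu (log2 fold change 0.40 ± 0.093, adjusted p = 0.00110). A different order was seen in Snhg6, Zfas1 and Epb41l4aos, which rose in Neu by 0.36, 0.32 and 0.37 on the log2 scale. The call of Epb41l4aos was lost without CTR 2, CTR 3, Neu 1 or Neu 3 (adjusted p of 0.0552 to 0.107), that of Snhg6 in Neu+NETs against CTR (0.21) in 9 settings (0.0501 to 0.106), 8 of which leave out 1 library (CTR 1, CTR 3, CTR 4, Neu 1, Neu 2 or Neu+NETs 1, 2 or 3), and that of Zfas1 in Neu+NETs against Neu (-0.22) in 7 settings (0.0603 to 0.245), among them without Neu 1, Neu 2, Neu+NETs 2 or Neu+NETs 4. Snhg8, Snhg16, Snhg17 and Snhg20 passed no test. The hosts with the pyrimidine tract printed above, Gas5, Snhg7 and Snhg8, had log2 fold changes of -0.19, -0.18 and 0.13 in Neu against CTR. Those printed without it, Snhg1 and Snhg15, were at -0.098 (not called) and -1.06.

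**Figure D3:**
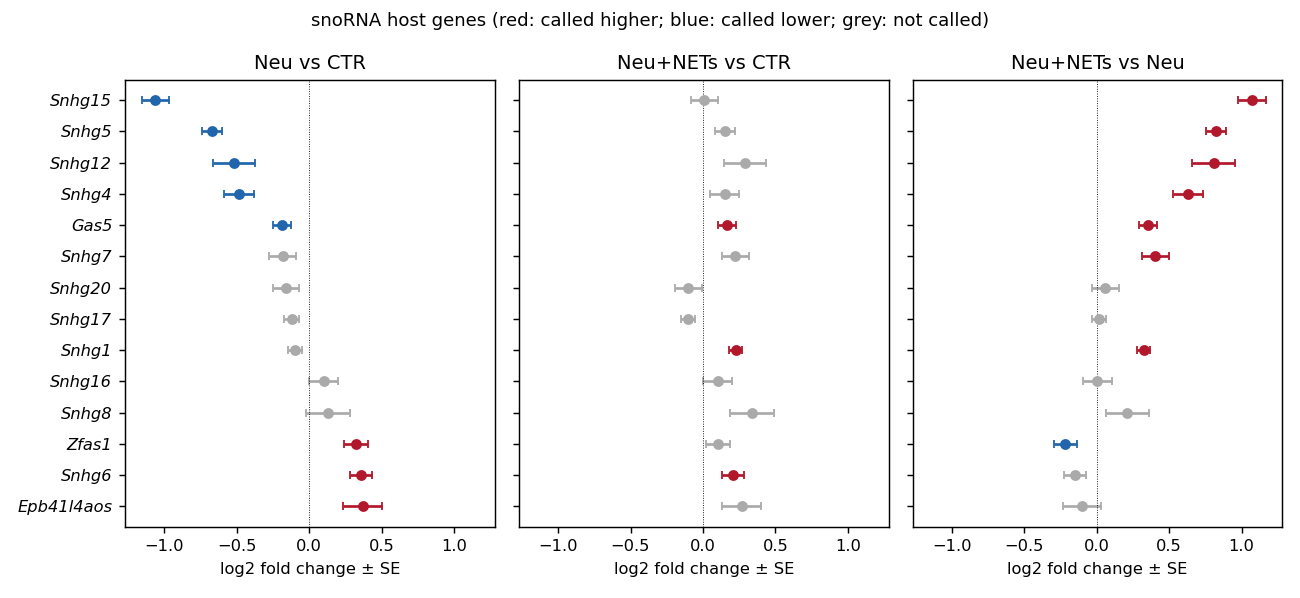
Log2 fold changes with SE (x axis) of the 14 snoRNA host members that are not pseudogenes (y axis) in the 3 comparisons, coloured by call. Snhg15, Snhg5, Snhg12 and Snhg4 lie left of 0 in Neu against CTR and right of 0 in Neu+NETs against Neu.

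The proteins that package and serve these RNAs were read from lists of protein-coding genes. Of 14 core and assembly proteins of snoRNA particles, 12 fell and none rose in Neu against CTR, 8 rose and none fell in Neu+NETs against CTR, and 12 rose and none fell in Neu+NETs against Neu (medians -0.64, 0.15 and 0.80). These were 85.7%, 57.1% and 85.7% of the list, against 54.1%, 45.3% and 62.5% of all genes, the shares that stand behind each list below. Nop56, a core protein of box C/D particles, was at 102, 98.7, 98.5 and 97.1 FPKM in the CTR libraries, at 50.3, 47.8, 46.3 and 49.5 FPKM in the Neu libraries and at 115, 119.5, 121 and 114 FPKM in the Neu+NETs libraries. Neu lay below every other library (log2 fold change -0.97 ± 0.031, adjusted p = 1.0e-13 against CTR). Nop58 and Snu13, of the same particle, fell in Neu by 0.90 and 0.98, and Dkc1, the pseudouridine synthase of box H/ACA particles and telomerase, by 1.04 on the log2 scale. In Neu+NETs against Neu these rose by 1.17 (Nop56), 1.11 (Nop58), 1.23 (Snu13) and 0.94 (Dkc1).

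Lists of factors that clear such transcripts were read in the same way. Of 14 nonsense-mediated decay factors, 1 rose and 9 fell in Neu against CTR, 5 rose and 1 fell in Neu+NETs against CTR, and 12 rose and 1 fell in Neu+NETs against Neu (71.4%, 42.9% and 92.9% called). Upf1, the helicase of this decay, changed by -0.73 in Neu against CTR and 0.70 in Neu+NETs against Neu, and Smg5 by -0.79 and 1.06, whereas the endonuclease Smg6 went the other way at 0.44 and -0.56. Of 18 subunits and adaptors of the nuclear exosome, the RNA-degrading complex, 2 rose and 13 fell in Neu against CTR, 10 rose and 1 fell in Neu+NETs against CTR, and 13 rose and 3 fell in Neu+NETs against Neu (83.3%, 61.1% and 88.9% called). Exosc2, a cap subunit, changed by -1.01, 0.46 and 1.47 and the nuclease Dis3 by -0.69, 0.18 and 0.86, all called.

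Of 11 proteins of RNase P and RNase MRP, which trim tRNA and ribosomal RNA precursors, 8 fell and none rose in Neu against CTR, 5 rose and 1 fell in Neu+NETs against CTR, and 9 rose and none fell in Neu+NETs against Neu (72.7%, 54.5% and 81.8% called). Pop1 changed by -0.80, 0.21 and 1.01 in this order, and Rpp40 by -1.24 in the first and 1.40 in the third. Of 7 proteins of the 7SK particle, which holds the elongation factor P-TEFb inactive, 3 fell in Neu against CTR, 2 rose and 2 fell in Neu+NETs against CTR, and 4 rose and 1 fell in Neu+NETs against Neu (42.9%, 57.1% and 71.4% called, the first below the share over all genes). Hexim1, the P-TEFb inhibitor, changed by -0.64, 0.28 and 0.93, and Larp7, which binds the end of 7SK, by -0.78, -0.33 and 0.44. The RNAs of these particles, Rn7sk, Rpph1, Rmrp and Terc, were under the level set for members, at 1.56, 0.630, 0.141 and 1.93 FPKM on average, and none of the 14 structured small RNAs listed (12 in the table) was a member. Such RNAs are known to lack a poly(A) tail for the most part.

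Of 18 miRNA host genes listed, 9 were in the table and 2 were members. Mir17hg (chr14:115280311-115284159, plus strand) carries the miR-17, miR-18a, miR-19 and miR-92a miRNAs printed above, a cluster known for promoting proliferation. It was at 5.59, 5.52, 5.02 and 5.44 FPKM in the CTR libraries, at 2.23, 2.35, 2.34 and 1.91 FPKM in the Neu libraries and at 5.85, 5.95, 5.81 and 5.93 FPKM in the Neu+NETs libraries. The Neu libraries were all far below the other 8, and the Neu+NETs libraries all slightly above CTR. Mir17hg was 2.35-fold lower in Neu than in CTR (log2 fold change -1.23 ± 0.078, adjusted p = 5.6e-10) and 2.48-fold higher in Neu+NETs than in Neu (log2 fold change 1.31 ± 0.078, adjusted p = 1.4e-10), with 0.077 ± 0.075 (adjusted p = 0.451) between Neu+NETs and CTR.

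Mir22hg (chr11:75352365-75357502, plus strand) carries miR-22. It was at 2.56, 3.26, 2.49 and 2.5 FPKM in the CTR libraries, at 5.58, 4.27, 4.29 and 4.97 FPKM in the Neu libraries and at 5.54, 4.97, 4.97 and 3.55 FPKM in the Neu+NETs libraries. Both groups with neutrophils lay above CTR with no overlap, and they overlapped each other. The log2 fold change was 0.87 ± 0.14 in Neu (adjusted p = 5.8e-05) and 0.76 ± 0.14 in Neu+NETs (adjusted p = 3.1e-04) against CTR. Mir22hg overlaps the coding gene Tlcd2 on the same strand, where reads of the 2 genes may not be told apart. Other hosts lay under the minimum level, among them Mir142hg at 1.82, Dleu2 at 0.913 and Mir155hg at 0.700 FPKM on average, and were given no further account.

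All 15 miRNA processing genes were called in Neu against CTR, 8 higher and 7 lower, and all 15 again in Neu+NETs against Neu, 8 higher and 7 lower, while 5 were higher and 4 lower in Neu+NETs against CTR (100%, 100% and 60% of the list, against 54.1%, 62.5% and 45.3% of all genes). Xpo5, which exports miRNA precursors, changed by -0.92, 0.20 and 1.13, all called. Ago2, the slicing Argonaute, went the other way, by 0.88 in Neu against CTR and -0.85 in Neu+NETs against Neu. Ago4 rose by 0.59 in Neu against CTR and fell by 0.84 in Neu+NETs against CTR. Dicer1, the nuclease that cuts precursors to mature miRNAs, stands among the members because its row carries only noncoding transcript types (protein_coding_LoF, undefined coding sequence and retained intron), although the gene encodes a protein. It was at 7.41, 7.35, 7.76 and 7.62 FPKM in the CTR libraries, at 4.21, 4.35, 4.23 and 4.31 FPKM in the Neu libraries and at 7.75, 7.91, 7.77 and 8.27 FPKM in the Neu+NETs libraries. Neu lay below both other groups (log2 fold change -0.76 ± 0.029, adjusted p = 8.8e-13 against CTR, and log2 fold change 0.78 ± 0.029, adjusted p = 2.6e-13 for Neu+NETs against Neu).

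Of 18 lncRNAs listed for inflammation and myeloid cells, 10 were in the table and Ttc39aos1 alone was a member. Ttc39aos1 (chr4:109260991-109263352, minus strand), known as lincRNA-EPS, restrains immune response genes in mouse macrophages. It was at 3.11, 3.65, 3.02 and 3.58 FPKM in the CTR libraries, at 1.66, 1.65, 1.96 and 1.35 FPKM in the Neu libraries and at 2.99, 2.38, 2.43 and 2.69 FPKM in the Neu+NETs libraries. CTR was highest, Neu lowest, and the groups did not overlap. Against CTR the log2 fold change was -0.95 ± 0.13 in Neu (adjusted p = 6.8e-06) and -0.40 ± 0.13 in Neu+NETs (adjusted p = 0.0168), and the second call was lost without CTR 2, Neu+NETs 2 or Neu+NETs 3 (adjusted p of 0.0515 to 0.0557). Ttc39a, which starts 468 bases away on the other strand, fell as well, by 0.52 and 0.48. Ptgs2os2, beside cyclooxygenase 2, averaged 1.39 FPKM and the myeloid Hotairm1 1.92 FPKM, both under the minimum. Of 9 lncRNAs listed at tumour suppressor and Myc loci, 6 were in the table and none was a member.

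Of the 10 members that rose most in Neu against CTR with no overlap, 9 were lncRNAs and 1 a TEC row. Gm15850 (chr1:136053916-136058921, minus strand) rose most. It was at 1.27, 0.901, 0.961 and 1.15 FPKM in the CTR libraries, at 10.7, 10.6, 11.2 and 11.8 FPKM in the Neu libraries and at 1, 1.39, 1.23 and 1.18 FPKM in the Neu+NETs libraries. The Neu libraries stood apart from all others, 10.7-fold above CTR (log2 fold change 3.41 ± 0.12, adjusted p = 3.6e-13) and 9.82-fold above Neu+NETs (log2 fold change -3.30 ± 0.12, adjusted p = 2.0e-13). Its start lies 206 bases from that of Kif21b, a kinesin, on the other strand. Kif21b itself was at 36.7 ± 1.22 FPKM in CTR, 122 ± 7.87 FPKM in Neu and 27.6 ± 0.999 FPKM in Neu+NETs, with log2 fold changes of 1.80 in Neu and -0.46 in Neu+NETs against CTR.

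4833427F10Rik was at 1.07 ± 0.157 FPKM in CTR, 6.6 ± 0.5 FPKM in Neu and 0.819 ± 0.0849 FPKM in Neu+NETs (log2 fold change 2.67 ± 0.14, adjusted p = 5.1e-11 in Neu against CTR). The nearest coding start, 49234 bases off, is that of Ier3, an early response gene that rose by 2.48 in the same comparison. 6720407P12Rik was at 3.02 ± 0.92 FPKM in CTR, 15.3 ± 0.262 FPKM in Neu and 2.02 ± 0.411 FPKM in Neu+NETs (log2 fold change 2.38 ± 0.19, adjusted p = 1.3e-08) and starts 1097 bases from Fgf11, a nonsecreted fibroblast growth factor family member that rose by 1.79. Gm11613 rose by 2.29 ± 0.15, to 5.6 ± 0.418 FPKM. Gm16201 rose by 2.13 ± 0.13 and lies opposite Adam8, a membrane metalloprotease of myeloid cells that rose by 1.36. Gm11110, opposite Tnfsf9, the ligand of the costimulatory receptor 4-1BB, rose by 1.41 where Tnfsf9 rose by 1.07. These 5 lncRNAs were lower in Neu+NETs than in Neu, by 1.09 (Gm11110) to 3.10 (4833427F10Rik) on the log2 scale.

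The remaining 4 of these 10 were Gm36496, Gm42793, ENSMUSG00000121633 and F730311O21Rik, which rose by 1.84, 1.76, 1.71 and 1.40 on the log2 scale. The nearest coding start to Gm36496 is that of Id2, at 91957 bases. Gm42793 is a TEC row on the same strand within Spp1, which encodes osteopontin and rose by 0.58, so reads of Spp1 can count there. ENSMUSG00000121633, a lncRNA with no symbol in the table, was at 5.22, 5.32, 6.13 and 5.3 FPKM in the CTR libraries, at 17.4, 15.3, 17.5 and 18.9 FPKM in the Neu libraries and at 8.12, 10.6, 9.36 and 9.24 FPKM in the Neu+NETs libraries. It was above CTR in both groups with neutrophils and above Neu+NETs in Neu, with no overlap (log2 fold change 0.71 ± 0.10, adjusted p = 9.1e-06 for Neu+NETs against CTR).

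The 10 that fell most in Neu against CTR with no overlap held Mir17hg, Snhg15 and Ttc39aos1, which are described above, 2 further lncRNAs, 4 pseudogenes and the miRNA row. 2700038G22Rik was at 2.46, 2.96, 2.97 and 2.65 FPKM in the CTR libraries, at 1.48, 1.41, 1.19 and 1.49 FPKM in the Neu libraries and at 4.51, 4.85, 4.76 and 4.22 FPKM in the Neu+NETs libraries. It was lowest in Neu and highest in Neu+NETs, with no overlap (log2 fold change -0.93 ± 0.10, adjusted p = 4.9e-07 in Neu against CTR and log2 fold change 0.68 ± 0.10, adjusted p = 2.0e-05 in Neu+NETs against CTR), and starts 6372 bases from Tomm7, a subunit of the mitochondrial import pore. Gm57050 fell in both, by 0.92 and 0.80, and lies opposite Gpx1, a glutathione peroxidase. Gpx1 was at 244 ± 37.7 FPKM in CTR, 209.7 ± 4.07 FPKM in Neu and 205 ± 7.38 FPKM in Neu+NETs, above the level of Gm57050 in each group (123 ± 33.9 FPKM in CTR, 62.9 ± 11.6 FPKM in Neu and 73.3 ± 9.76 FPKM in Neu+NETs), and without a known strand setting reads of Gpx1 may count on Gm57050. The pseudogenes Gm5913, Gm10259, Gm17828 and Rpl17-ps10 fell by 1.28, 0.91, 1.08 and 1.18. G3bp1, the stress granule protein whose transcript Gm5913 matches best, fell by 0.76, and Kpna2rt, matched by Gm10259, by 0.94.

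Gm55118 is the single miRNA row, 57 bases long (chr16:10961989-10962045, plus strand) and opposite Zc3h7a. It was at 913, 1150.3, 1312 and 1036 FPKM in the CTR libraries, at 536, 276, 294 and 595 FPKM in the Neu libraries and at 807, 1055, 575 and 618 FPKM in the Neu+NETs libraries. The values of CTR and Neu did not overlap (log2 fold change -1.32 ± 0.23, adjusted p = 8.7e-05), but an FPKM over 57 bases rests on fragments that overlap so short a row and is not a level of a mature miRNA.

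In Neu+NETs against CTR, 8 of the 10 members that fell most with no overlap were lncRNAs. A330074K22Rik (chr8:120931173-120954969, minus strand) fell most. It was at 3.13, 2.46, 2.7 and 3.35 FPKM in the CTR libraries, at 7.24, 5.83, 6.64 and 7.12 FPKM in the Neu libraries and at 0.591, 0.441, 0.972 and 0.401 FPKM in the Neu+NETs libraries. The 3 groups did not overlap, with Neu highest and Neu+NETs lowest, a 4.94-fold fall from CTR (log2 fold change -2.31 ± 0.21, adjusted p = 1.1e-07) and a 11.9-fold fall from Neu (log2 fold change -3.57 ± 0.22, adjusted p = 1.7e-10). Gse1, which starts 226 bases away on the other strand and encodes a coregulator protein, moved the same way by less, at 0.56 in Neu and -0.40 in Neu+NETs against CTR.

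AU022793 (chr15:39826041-39830420, plus strand) was at 12.9, 11.9, 14 and 11.4 FPKM in the CTR libraries, at 13.2, 12, 12.4 and 13.5 FPKM in the Neu libraries and at 2.79, 2.25, 2.48 and 3.04 FPKM in the Neu+NETs libraries. Neu and CTR overlapped (0.078 ± 0.090 (adjusted p = 0.497)) and every Neu+NETs library was lower than all others (log2 fold change -2.30 ± 0.10, adjusted p = 6.7e-12 against CTR, 4.91-fold). The nearest coding start is that of Lrp12, at 18651 bases. 4930589L23Rik was at 1.7, 2.44, 2.26 and 2.26 FPKM in the CTR libraries, at 4.39, 3.97, 3.68 and 3.79 FPKM in the Neu libraries and at 0.617, 0.496, 0.58 and 0.496 FPKM in the Neu+NETs libraries. It was highest in Neu and lowest in Neu+NETs, with log2 fold changes of 0.92 and -2.02 against CTR. Fnip2, a folliculin-interacting protein that starts 396 bases away on the other strand, fell in Neu+NETs by 0.93, and unlike 4930589L23Rik it was lower, not higher, in Neu (-0.13).

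Tnfsf13os lies opposite Tnfsf13, which encodes the B cell survival ligand APRIL. It was at 2.58 ± 0.385 FPKM in CTR, 3.33 ± 0.4 FPKM in Neu and 0.95 ± 0.253 FPKM in Neu+NETs (log2 fold change -1.47 ± 0.19, adjusted p = 8.0e-06 in Neu+NETs against CTR), and Tnfsf13 fell by 1.57 in the same comparison. 4930447F24Rik fell by 1.76, to 1.06 ± 0.159 FPKM. Gm6209 and 5830415G21Rik share a locus, as the second lies within the span of the first on the same strand, so they are no independent pair. They fell by 1.60 and 1.37, and the nearest coding start, that of the cystine transporter gene Slc7a11, is 163609 and 132903 bases off. Gm10134, 7030 bases from the start of Ralgds, rose by 1.39 in Neu and fell by 1.21 in Neu+NETs. Gm57137 lies within Tlr4, the endotoxin receptor, on the same strand and fell by 1.08 where Tlr4 fell by 0.60. Gm5345, a diverged copy of Gapdh taken up with that family, was the remaining one.

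The largest rises in Neu+NETs against CTR were smaller than the falls. Gm53692 (chr11:83539329-83541209, plus strand) rose most. It was at 5.81, 7.93, 7.26 and 6.94 FPKM in the CTR libraries, at 13.1, 12.3, 12.3 and 11.9 FPKM in the Neu libraries and at 15.1, 14.6, 14.1 and 11.4 FPKM in the Neu+NETs libraries. Both groups with neutrophils lay above CTR (log2 fold change 0.93 ± 0.10, adjusted p = 7.7e-07 for Neu+NETs, and 0.88 ± 0.10 for Neu). It lies opposite Ccl3, the chemokine MIP-1alpha, which rose by 1.41 in Neu and 1.89 in Neu+NETs. 1110002L01Rik, which starts 671 bases from Asxl2, rose by 0.89, and 8430429K09Rik, which starts 2 bases from Rnf185, by 0.75. Slfn10-ps, annotated as a lncRNA in spite of its pseudogene symbol, was at 3.2 ± 0.324 FPKM in CTR, 5.78 ± 0.615 FPKM in Neu and 6.11 ± 0.559 FPKM in Neu+NETs and rose in both groups with neutrophils (0.91 and 0.88). Gm53012, a readthrough row with a nonsense-mediated decay transcript only, rose by 0.81, and the pseudogenes Gm14584, Gm6565 and Gm7993 by 0.80, 0.76 and 0.73. Odc1, ornithine decarboxylase, which Gm7993 matches at 95.7%, rose by 0.80.

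Between Neu+NETs and Neu, the members not yet described that fell most were Gm12191 and Gm56555. Gm56555, opposite the amino acid transporter gene Slc7a15, was at 3.55, 3.39, 3.73 and 3.47 FPKM in the CTR libraries, at 8.03, 8.16, 7.98 and 9.19 FPKM in the Neu libraries and at 1.59, 1.95, 1.85 and 2.04 FPKM in the Neu+NETs libraries. The groups did not overlap, and Neu+NETs was 4.83-fold lower than Neu (log2 fold change -2.27 ± 0.081, adjusted p = 2.0e-13). Gm12191, a copy of Rpl30, was at 5.36, 7.07, 18.3 and 24.7 FPKM in the CTR libraries, at 40.3, 59.3, 95.1 and 14.3 FPKM in the Neu libraries and at 14.3, 3.53, 7.25 and 5.23 FPKM in the Neu+NETs libraries, and its log2 fold change of -2.88 ± 0.56 has a wide error. The members that rose most were the TEC row Gm10252 (log2 fold change 1.97 ± 0.49, adjusted p = 0.00206), which lies opposite Ftl1, the ferritin light chain, and 2700038G22Rik (1.61). Gm8116, Gm16062, 2010320M18Rik, Gm6493, Gm2446 and Gm6565 followed, at 1.33, 1.19, 1.14, 1.14, 1.03 and 1.00. Gm16062 starts 53 bases from Flcn, the folliculin gene, which passed no test against CTR in either group (log2 fold changes of -0.056 and 0.038).

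Many lncRNAs are transcribed away from a coding gene that shares their start region. There were 36 lncRNA members whose start lay within 1 kb of a coding start on the other strand, and 35 of the neighbours were tested. Pairs were taken by distance and strand alone, so not all of them run apart. Pairs that overlap, such as Gm53692 opposite Ccl3, are among them, and their reads may not be told apart. In these 35 pairs the lncRNA was called in 23, 24 and 25 in Neu against CTR, Neu+NETs against CTR and Neu+NETs against Neu. Of all genes tested, 54.1%, 45.3% and 62.5% were called. Both genes of the pair were called in 17, 18 and 18 pairs in the same order. They went the same way in 10, 14 and 14 of these and opposite ways in 7, 4 and 4. Whether pairs share a direction more often than other genes was not tested. The pairs named here, beyond those given above, were chosen after their values were seen. Map2k3os and Map2k3, a p38 pathway kinase, fell by 0.87 and 0.86 in Neu against CTR. Brip1os and the DNA helicase gene Brip1 fell by 0.61 and 1.05, and D430020J02Rik and the condensin gene Ncapg2 by 0.41 and 0.65. The lncRNA moved more than its neighbour in 2500002B13Rik with Sap30, a histone deacetylase complex subunit (1.15 and 0.53), and in Gm45774 with the metallothionein gene Mt2 (1.29 and 0.82).

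Other pairs went apart. Gm20632 was at 1.75 ± 0.169 FPKM in CTR, 4.17 ± 0.354 FPKM in Neu and 2.54 ± 0.135 FPKM in Neu+NETs and rose by 1.31 in Neu, where the histone gene H3c15 fell by 0.66. Zfas1 rose by 0.32 in Neu, where Znfx1, an antiviral helicase, fell by 0.48 (and by 1.47 in Neu+NETs). Gt(ROSA)26Sor, the locus widely used for transgenes, rose by 0.63 in Neu+NETs against CTR and by 0.96 against Neu, where Setd5, which starts 32 bases away, was at -0.080 (not called) and -0.64.

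**Figure D4:**
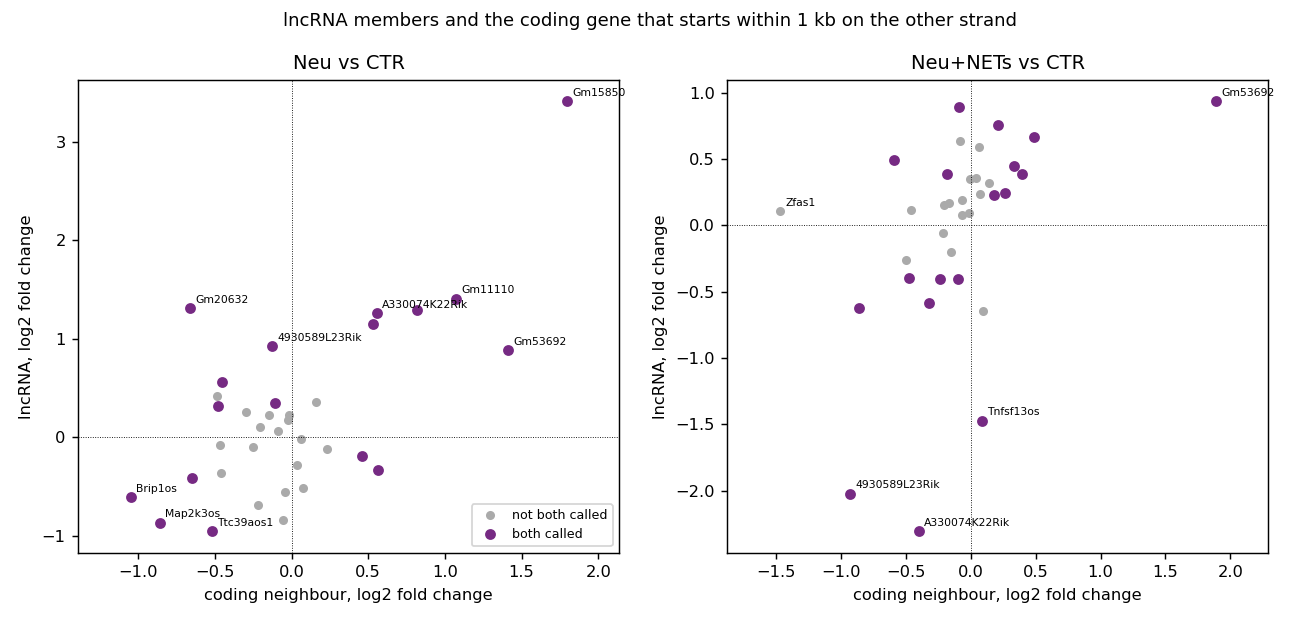
Log2 fold changes of lncRNA members (y axis) and of the coding gene that starts within 1 kb on the other strand (x axis), for Neu (left) and Neu+NETs (right) against CTR; purple pairs had both genes called. In Neu, 10 of 17 such pairs lie in the quadrants of equal direction, and in Neu+NETs 14 of 18.

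Overlap limits what can be assigned to a member. The span of 169 members overlaps that of a coding gene, 76 on the same strand and 96 on the opposite one, and 53 of the 164 lncRNAs do so, 11 on the same and 42 on the opposite strand. In 16 lncRNAs the span overlaps a pseudogene member. No source used here gives the strand setting of the counting, so reads of an overlapping pair may not be told apart. Among the 111 lncRNAs that overlap no coding gene, 42 rose and 31 fell in Neu against CTR (65.8%), 24 rose and 30 fell in Neu+NETs against CTR (48.6%), and 32 rose and 47 fell in Neu+NETs against Neu (71.2%), beside 54.1%, 45.3% and 62.5% of all genes.

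Pseudogenes are 412 of the 620 members. By sequence 406 of them matched a protein-coding transcript, at a median identity of 99.4%, with 348 at 98% or more and 64 identical over the aligned stretch, and the 406 matched 255 distinct genes. Their values therefore depend on how reads that match several places were assigned, which the sources used here do not state. The log2 fold changes of a pseudogene and its closest gene were compared. Over 405 pairs with both tested, the median absolute difference was 0.155 in Neu against CTR, 0.103 in Neu+NETs against CTR and 0.150 in Neu+NETs against Neu. The 90th percentile was 1.11, 0.552 and 0.774, and 44, 10 and 7 pairs differed by more than 1. Both were called in 163, 64 and 188 pairs, in the same direction in 150, 56 and 184. The pseudogene alone was called in 23, 23 and 20 pairs and the closest gene alone in 123, 109 and 98. In 89 pairs the pseudogene stood above its closest gene in mean FPKM.

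The 127 copies of cytosolic ribosomal protein genes had 22 higher and 15 lower in Neu against CTR, 2 and 5 in Neu+NETs against CTR, and 9 and 20 in Neu+NETs against Neu, that is 29.1%, 5.51% and 22.8%. The shares over all genes were 54.1%, 45.3% and 62.5%, and whether these differ was not tested.

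The largest family was that of Gapdh, the glycolytic glyceraldehyde-3-phosphate dehydrogenase, with 29 members at 90.8 to 100% identity. Of these, 26 rose and 1 fell in Neu against CTR (median log2 fold change 0.55), none rose and 11 fell in Neu+NETs against CTR (median -0.095), and none rose and 27 fell in Neu+NETs against Neu (median -0.62). The shares called were 93.1%, 37.9% and 93.1%, against 54.1%, 45.3% and 62.5% of all genes. The stretches of 60 bases below show how members differ as copies (GENCODE M21, GRCm38, 5′ to 3′). They are bases 754 to 813 of the longest frame from ATG to stop in the Gapdh transcript, 1080 bases, which was not read from the annotation. Capitals mark the 9 positions where Gm5345 differs from Gapdh. The stretch was chosen as the one with the most such differences, so it is not typical of the whole copy.
Gapdh: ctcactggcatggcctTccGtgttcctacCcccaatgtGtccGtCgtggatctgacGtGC
Gm12671: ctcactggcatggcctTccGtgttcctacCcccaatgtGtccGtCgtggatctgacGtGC
Gm5345: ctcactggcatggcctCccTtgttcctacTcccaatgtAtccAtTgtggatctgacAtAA
They lie at chr6:125162493-125162552, chr4:91851935-91851994 and chr8:40854278-40854337, all on the minus strand. Gm12671 has no difference from Gapdh in this stretch, so a read from it matches both places equally. Gm12671 was at 431, 423, 434 and 422 FPKM in the CTR libraries, at 563, 583, 573 and 647 FPKM in the Neu libraries and at 407, 426, 404 and 419 FPKM in the Neu+NETs libraries. All Neu libraries lay above the others (log2 fold change 0.52 ± 0.032, adjusted p = 3.8e-10 against CTR, and log2 fold change -0.62 ± 0.032, adjusted p = 2.4e-11 for Neu+NETs against Neu). Gm7336 (0.44 and -0.55) went the same way. Gm5345, the most diverged, was at 6.51, 6.01, 5.33 and 4.72 FPKM in the CTR libraries, at 4.44, 3.69, 3.38 and 4.74 FPKM in the Neu libraries and at 2.23, 3.1, 2.26 and 3.14 FPKM in the Neu+NETs libraries, and fell in Neu+NETs (log2 fold change -1.12 ± 0.16, adjusted p = 2.0e-05 against CTR). It thus did not share the rise of Gm12671 and Gm7336 in Neu.

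Estimated counts scaled to equal library totals (CPM) were summed over the Gapdh row and its 29 copies. The sums were 4688 to 4825 CPM in CTR, 6863 to 7356 in Neu and 4595 to 4757 in Neu+NETs. The copies held 97.1%, 92.5% and 95.8% of that sum, while the Gapdh row itself held 82.6 to 199 CPM in CTR, 460 to 588 in Neu and 86.5 to 266 in Neu+NETs. Most counts of the family thus stand on rows named as pseudogenes, and the sum over these rows was 1.48 times as high in Neu as in CTR and 0.979 times in Neu+NETs. It leaves out copies below the limits for members and the 3 members that match Gapdhrt or Gapdhrt2 best, so it would move if reads were shared with such rows. Whether the family's higher level in Neu is transcription of the gene or of a copy cannot be told apart from these counts.

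Other families showed a common change or a changed division. Hmgb1, a nuclear protein released as an alarm signal, and its 8 copies summed to 299.9 to 334 CPM in CTR, 172 to 193 in Neu and 339 to 354 in Neu+NETs, with 67.0%, 66.9% and 67.7% on the copies. The Neu sums lay below all others, while the share on the copies hardly moved. For Rpl17, a large-subunit ribosomal protein, and its 5 copies the sum was 461 to 474, 490.3 to 551 and 459 to 482, but the copies held 78.3%, 44.8% and 56.5% of it. By library this share was 67.5 to 82.7% in CTR, 40.4 to 57.2% in Neu and 40.6 to 70.3% in Neu+NETs. Neu+NETs thus overlapped both other groups. The row of Rpl17 was higher in Neu than in CTR (1.54) where Rpl17-ps10, at 359 ± 45.8 FPKM in CTR, 152 ± 49.5 FPKM in Neu and 218 ± 111 FPKM in Neu+NETs, was lower (-1.18), while the sum of the family did not fall. Gm10123, identical to Ppia (cyclophilin A) over the aligned bases, was at 496, 1176, 1121 and 1193 FPKM in the CTR libraries, at 451, 651, 392 and 348 FPKM in the Neu libraries and at 553, 526, 779 and 422 FPKM in the Neu+NETs libraries. In CTR the first library stood far below the other 3, beside log2 fold changes of -1.06 in Neu and -0.85 in Neu+NETs against CTR.

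**Figure D5:**
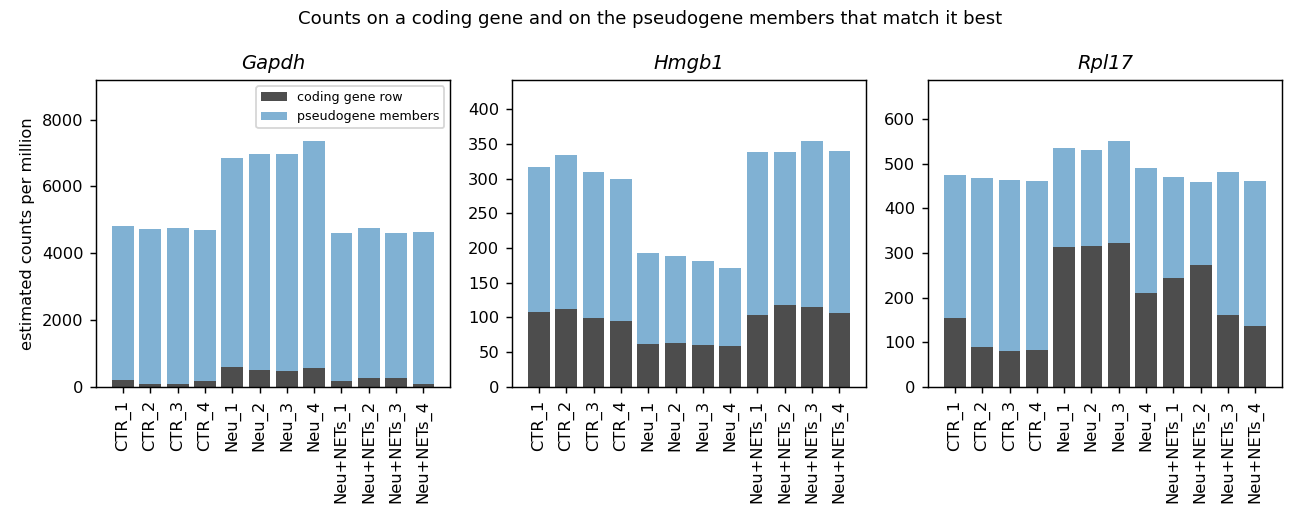
CPM of estimated counts (y axis, from 0) in the 12 libraries (x axis) on the rows of Gapdh, Hmgb1 and Rpl17 (dark) and on the pseudogene members that match each best (light), stacked. The Gapdh sum is highest and the Hmgb1 sum lowest in the 4 Neu libraries, while the Rpl17 sum stays between 459 and 551 as its division varies between and within groups.

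The most abundant members were not long noncoding RNAs. Of the 10 highest by mean FPKM, 5 are nuclear copies of mitochondrial genes, 3 are Gapdh copies, and Gm55118 and Gm10123 make up the rest. There were 9 members that matched a mitochondrial gene, 7 of them side by side at chr1:24650616-24655278. Gm28661 averaged 2947 FPKM, and in each library it held 99.4 to 100.5% of the FPKM of mt-Co2, which it matches at 100% over 681 bases. Gm28437 held 99.7 to 100.4% of mt-Co3, Gm10222 99.8 to 102% of mt-Nd4l and Atp6-ps 106 to 107% of mt-Atp6. Gm28438 held 107 to 117% of mt-Nd3 at 99.7% identity, Gm28439 65.6 to 71.0% of mt-Nd4 at 100% and Gm29216 20.6 to 28.0% of mt-Co1 at 99.8%, so identity did not order these shares. The lowest were those of 2 copies on chromosome 2, Gm13341 and Gm13340 at 95.9% and 97.6% identity (0.24 to 0.32% of mt-Co2 and 0.045 to 0.071% of mt-Co1). Gm28661 rose in Neu by 0.34 and fell in Neu+NETs against Neu by 0.40 on the log2 scale, and mt-Co2 did so by 0.33 and 0.40. Levels of the copies with full identity cannot be told apart from those of the mitochondrial genes.

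Among the 24 rows of other types, 2 rose and 5 fell in Neu against CTR, 3 rose and 3 fell in Neu+NETs against CTR, and 6 rose and 3 fell in Neu+NETs against Neu. The shares called were 29.2%, 25% and 37.5%, below the 54.1%, 45.3% and 62.5% of all genes, and the difference was not tested. Ik, which encodes a splicing factor but carries only a retained intron and an undefined coding sequence here, was at 50.4 ± 0.933 FPKM in CTR, 64.1 ± 2.53 FPKM in Neu and 51 ± 1.84 FPKM in Neu+NETs, higher in Neu than in CTR (0.40) and lower in Neu+NETs than in Neu (-0.43). Some rows with readthrough or decay types were listed at 0 in some libraries and high in others of the same group. Gm50461, named after its values were seen, was at 5.94, 5.9, 4.95 and 5.08 FPKM in the CTR libraries, at 0, 8.46, 6.97 and 8.12 FPKM in the Neu libraries and at 4.45, 5.04, 0 and 0 FPKM in the Neu+NETs libraries. Rn18s-rs5, a row of 18S ribosomal RNA, was at 358, 472, 543 and 389 FPKM in the CTR libraries, at 419, 226, 245 and 388 FPKM in the Neu libraries and at 312, 374, 184 and 196 FPKM in the Neu+NETs libraries. CTR and Neu+NETs overlapped although the mean fell (log2 fold change -0.77 ± 0.22, adjusted p = 0.00928).

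The members near the limits were as follows. Just above 2 FPKM on average stood D430040L24Rik (2.01), Gm48604 (2.02) and Gm9821 (2.03), and just below it Gm7160 (1.97), Gm30074 (1.96) and Gm20560 (1.91). At the limit of 200 counts, Gm10705 (201.3), Gm47218 (202.2) and ENSMUSG00000121445 (202.2) were taken, and Gm2810 (199.5), Gm10073 (199) and Gm20784 (199) were not. Members under 2 FPKM in a group of the comparison numbered 34, 46 and 47 in Neu against CTR, Neu+NETs against CTR and Neu+NETs against Neu, and 22, 11 and 12 of them were under it in the second-named group only. Such members are in because of the group where they are higher. Snhg3, at 2.89 FPKM and 192 counts on average, is a host gene left out by the limit on counts.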

How the data were processed

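Polyadenylated RNA of 12 BV2 cell libraries, 4 each of CTR, Neu and Neu+NETs as the labels name them, was taken from 1 table of 27487 genes. The estimated counts are whole numbers that the authors deposited unscaled, per the file headers. Multiples of 4 are in excess among low counts (33.0% of those between 2 and 41, against 25% by an even spread). How many units stand for a fragment was not estimated, and counts divided by 4 were run as an alternative. The FPKM were scaled by the authors to transcript length and library size, per the file headers. HISAT2 2.0.4, StringTie 1.3.4d, edgeR and GRCm39 are named in the submitters' processing notes without a role. No source used here names the annotation release or the handling of reads with several matches.

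The counts as deposited were tested with edgeR 4.0.16 (R 4.3.3). After filterByExpr (16387 genes) and TMM scaling with factors of 0.970 to 1.03, 1 quasi-likelihood model with a mean per group was fitted to the 12 libraries together (common biological coefficient of variation 12.5%). P-values were two-sided and adjusted by Benjamini-Hochberg over all genes of a comparison. SE is the absolute log2 fold change over the square root of F. Fold changes are from this fit, and levels are FPKM, as mean ± SD of 4 libraries or per library. Sums over gene families are CPM, counts over the library total.

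The members and gene lists were chosen with earlier results of these data known, and no list was given a test of its own. Members named were those called with no overlap between groups that ranked among the 10 highest or 10 lowest fold changes of a comparison, all members on the lists of known noncoding RNAs, the 10 highest by mean FPKM, those nearest the limits, at most 4 genes of each protein list by smallest adjusted p, and overlapping or nearest coding genes. Others are said to have been picked after their values were seen. Calls of such members that were lost when single libraries were left out are given as levels, or with that loss.

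Pseudogene transcripts were matched to protein-coding transcripts (GENCODE M21) with blastn 2.17.0, at an E value of at most 1e-20 and at least 100 aligned bases, by gene identifier. Sequences came from RefSeq and GENCODE on GRCm38, whereas positions of genes are those of the table on GRCm39, and none was converted. Same-numbered libraries of different groups did not vary together (correlation of deviations -0.054 to 0.043 over 12 pairs, 0 of them above 0.1). The labels do not say whether the numbers pair libraries, and a pairing with small effects would not show in this check. Alternatives were other scalings, filters, tests and units, limma 3.58.1 on log2 FPKM, DESeq2 1.42.0, other sets of members, and leaving out each library.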

Additional observations from a re-analysis of the deposited data

Results flagged for a closer look

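In 15 of 231 groups of 4 libraries examined, for the members whose changes were recomputed, 1 library stood apart from the other 3 by Dixon's test at the 95% level. Chance sets about 1 group in 20 apart in this way, so 15 is near what chance gives.

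Among the role lists, Malat1 was at 41.3 FPKM in Neu 1 beside 34.1 to 35.2 in the other Neu libraries, and Xist at 47.9 FPKM in CTR 2 beside 49.3 to 49.4. Snhg5 was at 4.70 FPKM in CTR 1 (the others 5.12 to 5.19) and at 6.17 FPKM in Neu+NETs 2 (5.66 to 5.75). Snhg1 was at 10.4 FPKM in Neu 1 (9.66 to 9.76), Snhg6 at 5.38 FPKM in Neu+NETs 2 (5.03 to 5.07), and Mir22hg at 3.26 FPKM in CTR 2 (2.49 to 2.56).

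Among other lncRNAs, ENSMUSG00000121633 was at 6.13 FPKM in CTR 3 (5.22 to 5.32), Gm57050 at 80.1 FPKM in Neu 4 (55.1 to 58.3), 4930447F24Rik at 1.295 FPKM in Neu+NETs 2 (0.967 to 0.986), Gm6209 at 4.21 FPKM in Neu 3 (4.69 to 4.78), Gm16062 at 6.73 FPKM in Neu+NETs 4 (5.57 to 5.75) and Gm56555 at 9.19 FPKM in Neu 4 (7.98 to 8.16). None of the differences reported for these genes changed its call without that library, except that of Snhg6 between Neu+NETs and CTR.

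Both pseudogenes set apart were low in CTR 1, Rpl17-ps10 at 290.1 FPKM (378 to 386 in the other CTR libraries) and Gm10123 at 496 FPKM (1121 to 1193). Their calls in Neu against CTR held without CTR 1. The part that the division of reads among copies has in these values was not tested.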

How the results depend on the processing

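Of 162 changes of 77 members, each called and recomputed in 22 other settings, 155 kept their call in all of them, 7 lost it in some and none reversed. The 7 are the small changes of Gas5 (in 2 comparisons), Firre, Epb41l4aos, Snhg6, Zfas1 and Ttc39aos1 given with their p above. Counts of members higher and lower moved by more than 1.5 times only where fewer members were counted or the test was limma. Without pseudogenes (208 members) they were 79 and 50 in Neu against CTR, 43 and 55 in Neu+NETs against CTR, and 49 and 86 in Neu+NETs against Neu. At 4 FPKM and 400 counts (372 members), 96 were higher in Neu against CTR, 59 higher and 59 lower in Neu+NETs against CTR, and 108 higher and 101 lower in Neu+NETs against Neu. Among members that overlap no coding gene, 58 were higher in Neu+NETs against CTR, and among such lncRNAs 42 were higher in Neu against CTR, 30 lower in Neu+NETs against CTR and 47 lower in Neu+NETs against Neu. With limma on log2(FPKM + 1) or log2(FPKM + 0.1), 138 or 136 members were higher in Neu+NETs against CTR, of them 82 or 81 pseudogenes; the cause was not tested. Leaving out 1 library gave 144 to 172 higher and 135 to 152 lower, 76 to 92 and 85 to 104, and 162 to 173 and 159 to 194 in the 3 comparisons. For lncRNAs these were 60 to 68 and 39 to 42, 29 to 37 and 41 to 50, and 37 to 41 and 68 to 75, and for pseudogenes 74 to 98 and 88 to 103, 38 to 50 and 33 to 46, and 114 to 125 and 77 to 109. With the replicate number as a block, 170 were higher and 155 lower in Neu against CTR, 87 and 97 in Neu+NETs against CTR, and 176 and 182 in Neu+NETs against Neu, and no call of a named member changed. No same-numbered pair correlated above 0.1, which cannot exclude a pairing with small effects, and the block is only a check. Reads shared among near-identical copies limit the counts of pseudogenes.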
